A study of Mus musculus with 16 samples.

Results

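The genes examined here encode the proteasome, its assembly factors and its regulators in 4 subpopulations of cMyc+ germinal center (GC) B cells. Members were all genes whose symbol began with Psm, followed by a letter from a to g and a digit, leaving out symbols that mark a pseudogene. This rule, which uses no measured value, took 50 of the 51912 genes in the deposited table. The inducible catalytic subunits Psmb8, Psmb9 and Psmb10 are given apart. One of the 50, Psmc3ip, encodes a cofactor of meiotic recombination and no proteasome subunit, and Psme2b is a single-exon copy of Psme2. Because Psme2 and Psme2b are nearly identical, reads may have been split between them and the values of both are uncertain.

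All libraries came from spleens of cMyc gfp/gfp mice on the C57BL/6J background, males and females of 6 to 15 weeks, which express a fusion of GFP and cMyc from the endogenous locus and were immunized intraperitoneally with sheep red blood cells (SRBC). B cells were enriched by depletion of CD43+ cells on day 7 and sorted as B220+ CD38low CD95+ cMycGFP+, and all 4 subpopulations share this genotype, immunization and gate. The cMyc+ prePB cells were CD69hi, the cMyc+ early cells were high for CD23 and CD21/35, and the cMyc+ lateCD23int and cMyc+ lateCD23lo cells were intermediate and low for CD23. In the study, the cMyc+ early and late cells were gated as light zone cells, after CD69hi and dark zone cells were taken out. The cMyc+ prePB cells were not gated on zone, and the study found most, but not all, of them in the light zone. Each subpopulation had 4 libraries, numbered 1 to 4, and the labels do not say whether a library holds 1 animal or several. In such bulk libraries, fewer cells of a type and less RNA per cell cannot be told apart.

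Values are normalized counts, which the authors made by dividing each library's gene counts by 1 size factor. Recovered reads ranged from 19812080 to 25795815 per library, and 3 reads corresponded to normalized counts of 2.48 to 3.23. The B cell markers Cd79a, Cd79b, Ms4a1 and Cd74 and the GC markers Bcl6, Fas, S1pr2 and Mef2b were detected in all 16 libraries, with lowest normalized counts of 18438 for Cd79a and 1238 for Bcl6. The summed level of 6 T cell markers was at most 206 and that of 5 myeloid markers at most 984 in any library. The summed level of 3 erythroid markers ranged from 30.7 to 4169, and all of them were detected in every subpopulation. The summed level of 5 plasma cell markers (Prdm1, Xbp1, Sdc1, Jchain and Irf4) was 37257 to 111293 for cMyc+ prePB, against 23488 to 30149 for cMyc+ early, 31588 to 59105 for cMyc+ lateCD23int and 56149 to 90119 for cMyc+ lateCD23lo.

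The proteasome degrades proteins that carry ubiquitin chains. Its 20S core is a barrel of 4 stacked rings in which the outer rings are built of alpha subunits (Psma genes) and the inner rings of beta subunits (Psmb genes), and the catalytic sites are carried by Psmb5, Psmb6 and Psmb7. In lymphoid cells and after interferon, these can be replaced by Psmb8, Psmb9 and Psmb10 to form the immunoproteasome, which serves the making of peptides for MHC class I. The 19S regulatory particle, with ATPases (Psmc genes) and other subunits (Psmd genes), binds ubiquitylated substrates, removes the ubiquitin and feeds the protein into the core. Psme genes encode activators that cap the core in its place, Psmf1 encodes an inhibitor, and Psmg1 to Psmg4 together with Psmd5, Psmd9 and Psmd10 encode assembly chaperones.

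Proteasome genes are known targets of the transcription factors NRF1 (Nfe2l1) and NRF2 (Nfe2l2), which bind antioxidant response elements, and the inducible subunits are known targets of IRF1 after interferon. Promoter windows of 300 bases from RefSeq (GRCm38.p6) were matched for 42 of the 50 genes. The windows of Psmb5, Psmb6 and Psmb8 are shown because they set a constitutive catalytic subunit beside an inducible one, with the motif in capitals and the sequence read 5′ to 3′ on the strand of the gene. For Psmb5 and Psmb6 the 150 bases before the RefSeq start site are printed, with the letters TGACNNNGC of an antioxidant response element beginning 47 and 9 bases before that site. For Psmb8 a stretch of 29 bases is printed around the letters TTCNNNGAA of a gamma-activated site, which begins 97 bases before the start site.
Psmb5, chr14:54617996-54618145, minus strand: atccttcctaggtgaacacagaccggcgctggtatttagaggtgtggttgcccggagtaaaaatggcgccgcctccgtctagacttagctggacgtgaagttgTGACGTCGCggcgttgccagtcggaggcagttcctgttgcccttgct
Psmb6, chr11:70525207-70525356, plus strand: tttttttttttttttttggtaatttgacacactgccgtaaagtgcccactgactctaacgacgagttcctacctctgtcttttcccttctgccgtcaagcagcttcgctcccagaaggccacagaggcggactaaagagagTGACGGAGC
Psmb8, chr17:34198088-34198116, plus strand: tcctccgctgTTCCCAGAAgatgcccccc

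In the GENCODE annotation of GRCm38, the last 27 bases of the Psmb5 window lay in the first exon of its longer transcript, the Psmb6 window lay in no annotated transcript, and the Psmb8 stretch lay in the 5′ UTR of a transcript that starts further upstream. On either strand, TGACNNNGC was found in the windows of 6 of the 42 genes (14.3%) and in 12.4% of the 32851 promoter windows of the table. TTCNNNGAA was found for 3 of 42 (7.14%) and in 8.30% of all windows. An interferon-stimulated response element, searched as a pair of GAAA runs with any 2 bases between them, was found for 5 of 42 (11.9%) and in 3.44% of all windows. These 5 were Psmb3, Psmd4, Psmd9, Psme1 and Psmg4, while the windows of Psmb8, Psmb9 and Psmb10 held none, and those of Psmb9 and Psmb10 held no TTCNNNGAA either. A GC box (GGGCGG) was found for 23 of 42 (54.8%) and in 35.7% of all windows, and CCAAT for 15 of 42 (35.7%) and in 37.4%. A gene with several windows was counted once where any of them held the letters. Such a match is a description of the letters and no evidence of binding.

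To compare levels between genes, normalized counts were divided by the length of the principal transcript in GENCODE and averaged over the 16 libraries. With this length the highest level per kb was that of Psma7, an alpha ring subunit, at 20882 normalized counts per kb, followed by the beta subunits Psmb6 at 20062 and Psmb3 at 17605, the inducible Psmb8 at 15389 and the activator subunit Psme2 at 14985. The median level per kb was 7122 for the 7 alpha subunits, 7635 for the 7 constitutive beta subunits, 5513 for the 6 ATPases of the base and 4003 for the 11 other subunits of the regulatory particle. Assembly chaperones were lower, with a median of 1297 normalized counts per kb for the 4 Psmg genes and of 1101 for Psmd5, Psmd9 and Psmd10. This order depends on the length used. With the longest coding transcript Psma7 was at 16496, below Psmb6 and Psmb3, and with all exons together it was at 6215, below Psmb2 at 8836 and Psmb6 at 8552. With all exons together the medians were 4334 for the ATPases, 3501 for the alpha and 3475 for the constitutive beta subunits, so that the ATPases came first. With the principal transcript the 6 ATPases, which form a ring with 1 copy of each, lay within 2.86-fold of each other, from Psmc6 at 2414 to Psmc4 at 6906 normalized counts per kb.

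**Figure D1:**
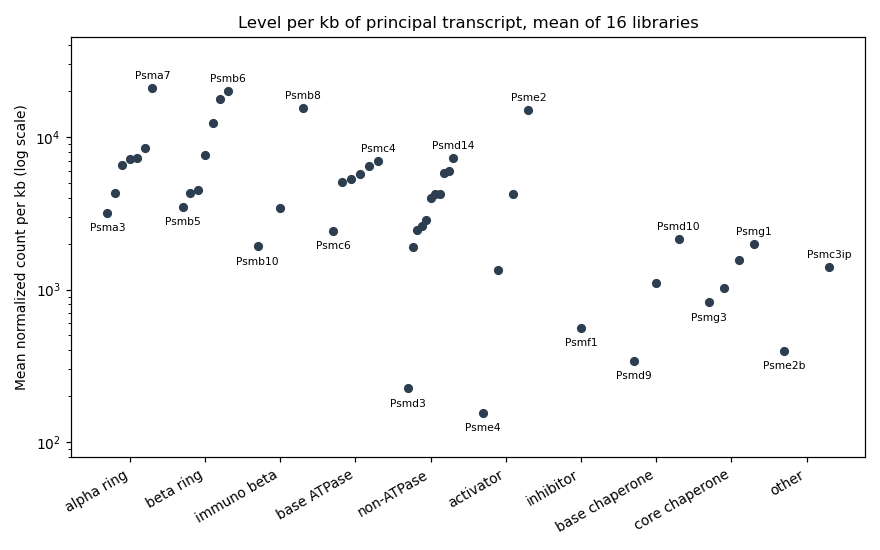
Mean normalized count per kb of principal transcript over 16 libraries (vertical axis, log scale) for the 48 genes tested, grouped by role, with each point 1 gene. Psma7 (20882), Psmb6 (20062), Psmb3 (17605, not labelled), Psmb8 (15389) and Psme2 (14985) stand at the top, and Psme4 (156) and Psmd3 (226) at the bottom.

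Psmd3, a subunit of the lid of the regulatory particle, had 226 normalized counts per kb, 32.3-fold less than Psmd14, the lid's deubiquitylase, at 7286. Psme4, which encodes the activator PA200, was lowest of the 48 genes at 156 normalized counts per kb, while with all exons together Psmd3 (97.5) lay below it (121). Psme4 also varied within cMyc+ prePB, with normalized counts of 1772, 746, 546 and 678, so that library 1 lay far above the others. The tissue-restricted subunits Psma8, known from testis, and Psmb11, known from cortical thymic epithelium, had mean normalized counts of 1.69 and 0.0672 and were not tested. Psma8 reached 11.2 in cMyc+ lateCD23int library 4 and 5.09 in library 2, 4.68 in cMyc+ lateCD23lo library 2 and at most 2.71 in the other 13 libraries. Psmb11 was at 0 in 15 of 16 libraries and at 1.07, which is 1 read, in cMyc+ prePB library 1.

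Together the 50 genes took 1.68% ± 0.0431 (SD, n = 4) of all normalized counts of the cMyc+ prePB libraries, against 1.45% ± 0.0860 for cMyc+ early, 1.45% ± 0.124 for cMyc+ lateCD23int and 1.58% ± 0.124 for cMyc+ lateCD23lo. The share in libraries 1 to 4 was 1.63%, 1.72%, 1.65% and 1.70% in cMyc+ prePB and 1.41%, 1.44%, 1.57% and 1.38% in cMyc+ early. It was 1.42%, 1.49%, 1.31% and 1.60% in cMyc+ lateCD23int and 1.40%, 1.67%, 1.59% and 1.64% in cMyc+ lateCD23lo. All 4 cMyc+ prePB libraries lay above all cMyc+ early and cMyc+ lateCD23int libraries and overlapped with cMyc+ lateCD23lo. The Wilson 95% interval of a single share was at most 0.0107 percentage points wide. Such an interval covers counting error only. It takes each read as a separate draw, although PCR copies were not collapsed by molecular identifiers, so that it may be too narrow even for that.

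**Figure D2:**
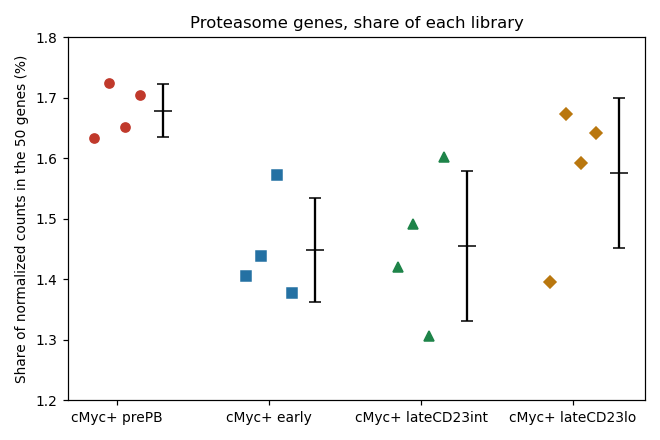
Share of all normalized counts in the 50 genes (percent, axis from 1.2 to 1.8) in each library of the 4 subpopulations, with the mean and SD of 4 libraries beside the points. The cMyc+ prePB libraries lie between 1.63% and 1.72%, above all cMyc+ early (1.38% to 1.57%) and cMyc+ lateCD23int (1.31% to 1.60%) libraries.

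The 20S core without the inducible subunits took 0.683% ± 0.0315 (SD, n = 4) for cMyc+ prePB, against 0.569% ± 0.0662 for cMyc+ early, 0.603% ± 0.0803 for cMyc+ lateCD23int and 0.663% ± 0.0379 for cMyc+ lateCD23lo. The 3 inducible subunits took 0.165% ± 0.0142 in cMyc+ prePB and 0.131% ± 0.0111 in cMyc+ early. Their libraries ranged from 0.151% to 0.178% in cMyc+ prePB and from 0.117% to 0.143% in cMyc+ early, without overlap. They ranged from 0.126% to 0.143% in cMyc+ lateCD23int and from 0.131% to 0.163% in cMyc+ lateCD23lo, the last of which overlapped with cMyc+ prePB. The 4 activator genes Psme1 to Psme4 took 0.116% to 0.135% in cMyc+ prePB, above every library of the other 3 subpopulations, where the highest was 0.108%. No other role group was separated in this way, and the activators are named for it after their values were seen. The 4 activator genes did not move together. Their log2 differences from the mean of the other 3 subpopulations ran from -0.27 to 0.36, with 3 above 0. These shares were not tested, and Psme2, whose values are uncertain as given above, makes up most of the activator share.

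Whether any member differed among the subpopulations was tested in limma on log2(normalized count + 1), with Benjamini-Hochberg adjustment over the 12505 genes that averaged 10 or more, 48 members among them. None of the 48 had an adjusted p-value under 0.05 in the multigroup comparison, where 0.408% of all genes tested did. The same held for each of the 5 contrasts below, which share libraries with each other and with the multigroup comparison. In the multigroup comparison 0 members and 10.2% of all genes had an unadjusted p-value under 0.05. The members with the lowest p-values there were Psmb9, Psmd7 and Psmc3ip, with adjusted p-values of 0.519, 0.525 and 0.542 in limma. The quasi-likelihood test of edgeR on the recovered reads also called 0 of the 48 in each comparison.

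By median SD, members varied less between libraries of 1 subpopulation than all genes tested, with a smaller gap among genes of high level. The median SD within subpopulations was 0.24 on the log2 scale over the 48 members and 0.62 over all genes tested. Among genes that averaged 1000 or more it was 0.23 for 43 members and 0.30 for 3651 genes. The highest library exceeded the lowest by 1.38-fold for Psmd11, the lowest such ratio of the 48, and by 4.86-fold for Psmd3, the highest. Beyond Psmd3, the genes over 2.5-fold were Psme4 (3.24-fold), the scaffold subunit Psmd2 (2.79-fold), the nuclear activator Psme3 (2.71-fold) and Psmc3ip (2.56-fold).

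**Figure D3:**
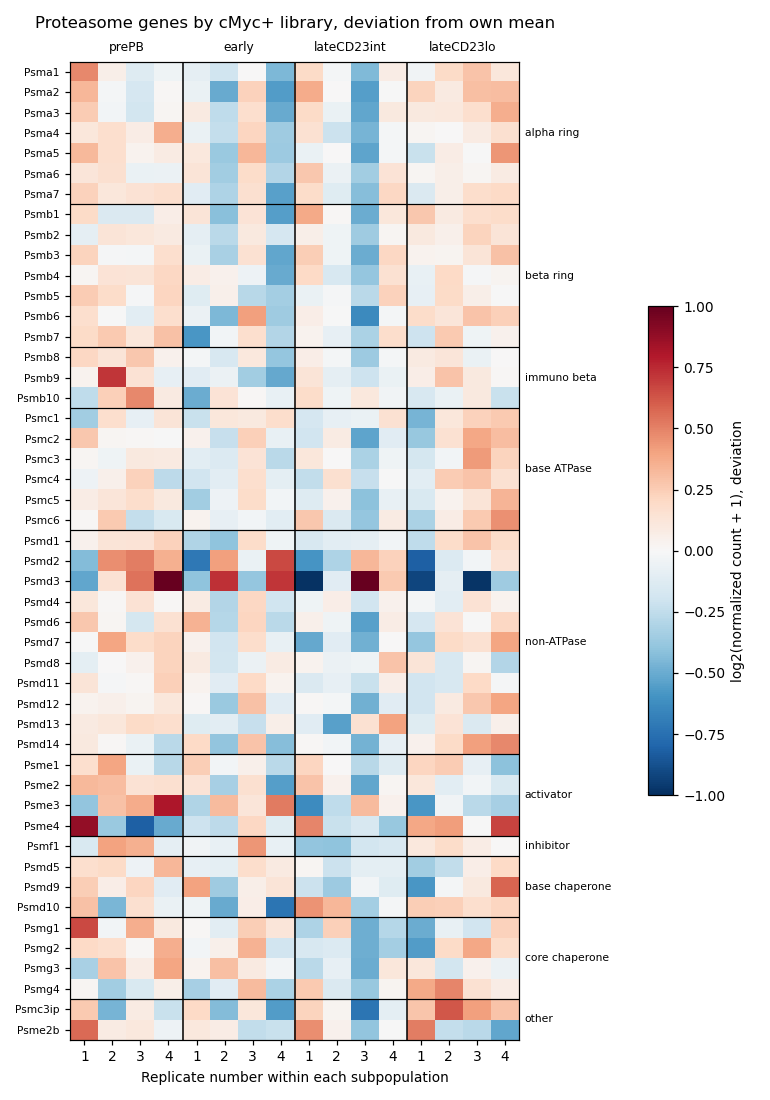
Deviation of log2(normalized count + 1) of 48 genes (rows, grouped by role) from their own mean over 16 libraries (columns, libraries 1 to 4 of each subpopulation), with colors limited to -1 and 1. Most rows stay pale, most Psma and Psmb rows are blue in cMyc+ lateCD23int library 3 and cMyc+ early libraries 2 and 4, and Psmd3, with the widest range (4.86-fold), has the darkest cells.

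Some libraries stood apart for the members as a group. The median deviation of the 48 members from their subpopulation mean was 0.23 (log2) in cMyc+ early library 3, where 39 of 48 lay above the mean, and -0.28 in cMyc+ lateCD23int library 3, where 8 of 48 did. It was -0.15 in cMyc+ early library 4, 0.14 in cMyc+ lateCD23int library 1, -0.13 in cMyc+ early library 2, -0.12 in cMyc+ lateCD23lo library 1 and at most 0.11 in size in the other libraries. Over all genes tested this deviation was between 0.0003 and 0.0355.

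The cMyc+ prePB subpopulation, which the study examined for precursors of plasmablasts, was compared with cMyc+ early. Of 48 members, 46 had a higher mean of log2 values in cMyc+ prePB, against 51.2% of all genes tested, with a median difference of 0.16 on the log2 scale against 0.01 for all genes. None passed the adjusted threshold (0.192% of all genes did), and 6 (12.5%) had an unadjusted p-value under 0.05, against 8.58% of all genes. These 6 were Psma7, Psmb5, Psmb7, Psmb8, Psmb9 and Psme2, each higher in cMyc+ prePB. The members share libraries and are not independent of each other, so that 46 of 48 is no count of separate results. Without cMyc+ early library 4, 39 of 48 were higher in cMyc+ prePB, with a median difference of 0.11.

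The summed plasma cell markers were also higher in each cMyc+ prePB library than in each cMyc+ early library, and their part in these differences was not tested. All 14 constitutive core subunits had a higher mean in cMyc+ prePB, with differences of 0.12 to 0.40 and a median of 0.25 (log2). All 11 non-ATPase subunits of the regulatory particle had differences of 0.03 to 0.27 with a median of 0.12. The 6 ATPases had differences of -0.08 to 0.18 with a median of 0.07. The differences of the groups were not tested against each other.

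Psmb9, which takes the place of Psmb6 in the immunoproteasome, had normalized counts of 4681, 7498, 5053 and 4325 in cMyc+ prePB and of 4230, 4386, 3604 and 3216 in cMyc+ early. Only the highest cMyc+ early library (4386) lay above the lowest cMyc+ prePB library (4325), and cMyc+ prePB library 2 stood far above the rest. The log2 difference was 0.46 (SE 0.17, 95% interval 0.11 to 0.81), the largest of the 48, with an adjusted p-value of 0.430 in limma. Without cMyc+ prePB library 2 it was 0.29.

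Psmb8, which takes the place of Psmb5, had normalized counts of 28737, 27224, 29988 and 25576 in cMyc+ prePB and of 24581, 22321, 26798 and 19024 in cMyc+ early. A single cMyc+ early library reached the range of cMyc+ prePB, and the log2 difference was 0.28 (SE 0.13) with an adjusted p-value of 0.578 in limma. Psmb10, which takes the place of Psmb7, had 2081, 2920, 3460 and 2639 against 1762, 2728, 2500 and 2355, with a log2 difference of 0.24 (SE 0.18) and an adjusted p-value of 0.767 in limma. The difference of Psmb10 was 0.11 without cMyc+ early library 1 and 0.37 without cMyc+ prePB library 1. All 3 inducible subunits had a higher mean in cMyc+ prePB, and none of these differences passed the test.

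The constitutive catalytic subunits showed differences of similar size. Psmb5 had normalized counts of 3704, 3512, 3071 and 3594 in cMyc+ prePB and of 2857, 3203, 2552 and 2451 in cMyc+ early, a log2 difference of 0.33 (SE 0.15) with an adjusted p-value of 0.554 in limma. Psmb7 had 5833, 6113, 5522 and 6255 against 3410, 5022, 5727 and 4176, a log2 difference of 0.40 (SE 0.16) with an adjusted p-value of 0.519 in limma. For Psmb7 the cMyc+ early libraries were more spread (SD 1007) than those of cMyc+ prePB (SD 324), and library 3 alone reached the range of cMyc+ prePB. Psmb6 had 17650, 15725, 14649 and 17666 against 15081, 11508, 20918 and 12296, with a log2 difference of 0.17 (SE 0.18), which was 0.06 without cMyc+ early library 2 and 0.35 without cMyc+ early library 3. The highest cMyc+ early library of Psmb6 lay above all cMyc+ prePB libraries.

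Psma7 had normalized counts of 22056, 20400, 20842 and 21211 in cMyc+ prePB and of 17452, 15238, 21023 and 12927 in cMyc+ early, with a log2 difference of 0.37 (SE 0.16) and an adjusted p-value of 0.554 in limma. Psmd10, known as gankyrin and a chaperone of the base, was named with Psmb9 and Psmb5 as the 3 largest differences with the same sign in every library number. It had 3666, 2177, 3349 and 2859 against 2914, 2108, 3142 and 1802, with a log2 difference of 0.28 (SE 0.21), which was 0.14 without cMyc+ early library 4 and 0.43 without cMyc+ prePB library 2. The activator PA28 is built of Psme1 and Psme2, which interferon is known to induce together. Psme2 had 17746, 17598, 15658 and 15885 against 15623, 11274, 15862 and 9706, with a log2 difference of 0.38 (SE 0.18) and an adjusted p-value of 0.576 in limma, and the difference was 0.25 without cMyc+ early library 4. Psme1 had 5239, 6128, 4463 and 3836 against 5519, 4571, 4828 and 3857, with a log2 difference of 0.06 (SE 0.18, 95% interval -0.33 to 0.44), and the difference between the partners was not tested.

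**Figure D4:**
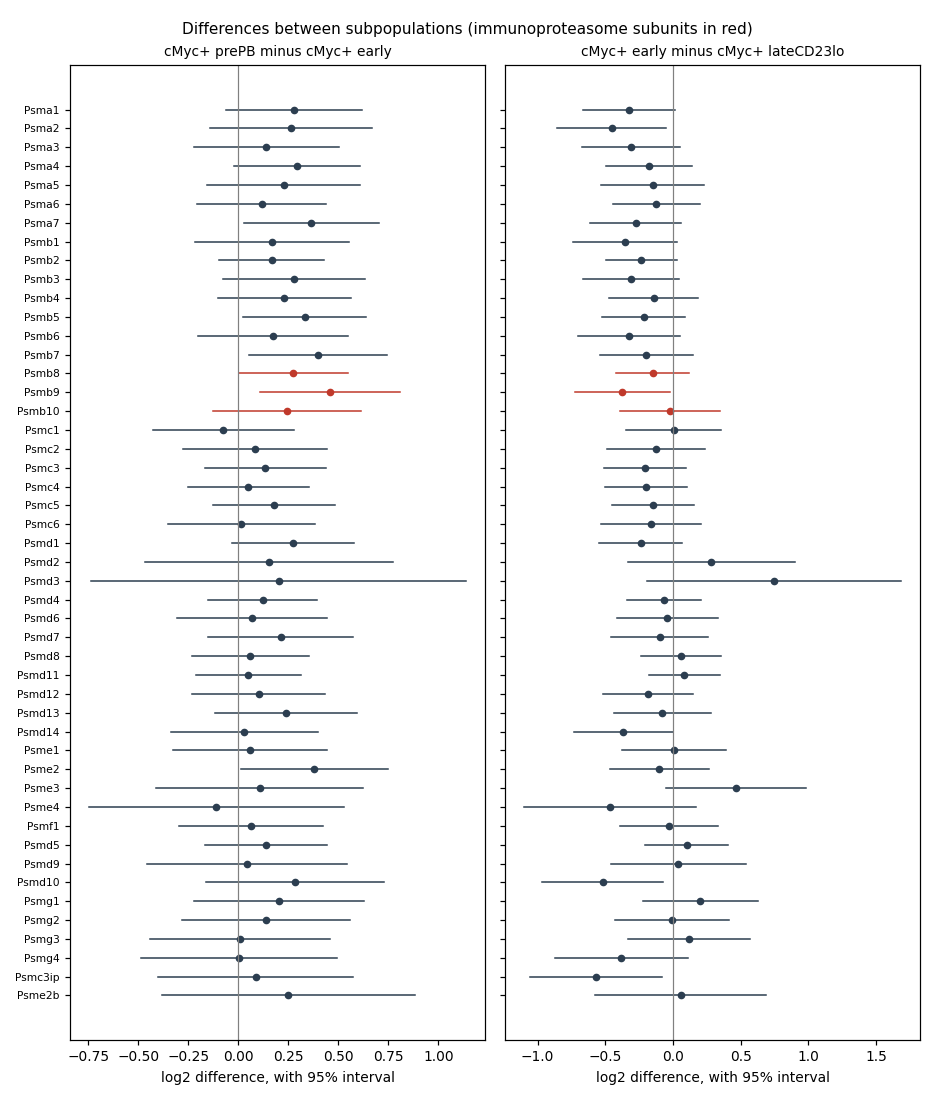
Difference of mean log2(normalized count + 1) with its 95% interval for each of 48 genes, for cMyc+ prePB minus cMyc+ early (left) and cMyc+ early minus cMyc+ lateCD23lo (right), with Psmb8, Psmb9 and Psmb10 in red and other horizontal scales on the left and right. On the left 46 points lie right of 0, on the right 36 lie left of 0, and most intervals cross 0.

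In that contrast 1 member, the lid subunit Psmd13, had all cMyc+ prePB libraries (3963 to 4256) above all cMyc+ early libraries (3181 to 3880), where 2.06% of all genes were separated in this direction. No member was separated in the other direction, where 2.18% of all genes were. Psmd13 is named for this count, after its values were seen, and its log2 difference was 0.24 with an adjusted p-value of 0.763 in limma.

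When cMyc+ prePB was set against the mean of the other 3 subpopulations, 39 of 48 members were higher in cMyc+ prePB, against 50.3% of all genes, with a median difference of 0.13 against 0.003 (log2). No member passed the adjusted threshold (0.312% of all genes did). An unadjusted p-value under 0.05 was reached by 3 members (6.25%), against 11.1% of all genes, so that the share of members was below that of all genes. These were Psme2, Psmb7 and the core chaperone Psmg1, with log2 differences of 0.31, 0.29 and 0.36 and adjusted p-values of 0.421, 0.439 and 0.414 in limma. No member had all cMyc+ prePB libraries above all 12 others, where 0.328% of all genes did.

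The 3 largest positive differences with the same sign in every library number were those of Psme3 (0.36, SE 0.20), Psme2 (0.31, SE 0.14) and Psmd2 (0.30, SE 0.24). Psme3, which caps the core in the nucleus, had normalized counts of 2634, 4238, 4475 and 6048 for cMyc+ prePB, against 2808, 4299, 3752 and 4953 for cMyc+ early, 2235, 2900, 4311 and 3556 for cMyc+ lateCD23int and 2307, 3375, 2863 and 2746 for cMyc+ lateCD23lo. Psmd2 had 5494, 10206, 10572 and 9471 for cMyc+ prePB, against 4518, 9836, 7072 and 11693 for cMyc+ early, 4934, 5987, 9310 and 8703 for cMyc+ lateCD23int and 4196, 6735, 7257 and 8155 for cMyc+ lateCD23lo. Library 1 was the lowest of its subpopulation for both genes in all 4 subpopulations. Without cMyc+ prePB library 1 the difference of Psme3 was 0.58 and that of Psmd2 0.52, and without cMyc+ prePB library 4 that of Psme3 was 0.18. For Psmd2 it was 0.20 without cMyc+ prePB library 3.

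Along the order from cMyc+ early to cMyc+ lateCD23int, the members differed little in either direction. The difference of cMyc+ early minus cMyc+ lateCD23int was above 0 for 22 of 48 members, against 47% of all genes, with a median of -0.02 against -0.03 (log2). No member passed the adjusted threshold (0.008% of all genes did), and 0 had an unadjusted p-value under 0.05, against 3.71%. The sign of the median turned without cMyc+ lateCD23int library 1 (0.04, with 31 of 48 above 0) or library 4 (0.01, with 29) and without cMyc+ early library 2 (0.03, with 28) or library 4 (0.03, with 29). The 95% interval of the difference lay within -1 and 1 for 47 of the 48 members.

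The largest positive differences with the same sign in every library number were those of Psmf1, the inhibitor PI31, at 0.35 (SE 0.17), of the core chaperone Psmg2 at 0.33 (SE 0.20) and of the base chaperone Psmd9 at 0.24 (SE 0.24), all higher in cMyc+ early. Psmf1 had normalized counts of 2045, 1996, 2849 and 1994 in cMyc+ early and of 1597, 1590, 1843 and 1878 in cMyc+ lateCD23int. It was the only member whose cMyc+ early libraries all lay above those of cMyc+ lateCD23int, where 1.11% of all genes did, and its adjusted p-value in limma was 0.9999. Without cMyc+ early library 3 its difference was 0.22. No member was separated in the other direction, where 1.37% of all genes were. Psmg2 had 1596, 1692, 2074 and 1431 against 1459, 1484, 1161 and 1290, and Psmd9 had 1148, 678, 905 and 950 against 748, 675, 850 and 797. The groups overlapped for both chaperones, and the difference of Psmd9 was 0.13 without cMyc+ early library 1 and 0.38 without cMyc+ early library 2.

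Between cMyc+ lateCD23int and cMyc+ lateCD23lo, 7 of 48 members were higher in cMyc+ lateCD23int and 41 in cMyc+ lateCD23lo, against 51.2% of all genes higher in cMyc+ lateCD23int. The median difference was -0.16 (log2) against 0.02 for all genes. No member passed the adjusted threshold (0.008% of all genes did). An unadjusted p-value under 0.05 was reached by 4 members (8.33%), against 6.28% of all genes, namely Psmc3ip, Psmd14, Psmf1 and Psmd7, all higher in cMyc+ lateCD23lo. Without cMyc+ lateCD23int library 3 the median was -0.06 and 16 members were higher in cMyc+ lateCD23int, and with quantile normalization these values were -0.08 and 15.

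All cMyc+ lateCD23int libraries lay below all cMyc+ lateCD23lo libraries for 4 members, Psmb6, Psmc3ip, Psmd14 and Psmf1, where 1.86% of all genes were separated in this direction. None was separated in the other direction, where 1.91% of all genes were. Psmd14, which removes ubiquitin chains from substrates at the lid, had 11102, 10849, 7941 and 10425 in cMyc+ lateCD23int and 11390, 12609, 14689 and 15346 in cMyc+ lateCD23lo, a log2 difference of -0.42 (SE 0.17, adjusted p = 0.754 in limma). Psmf1 had 1597, 1590, 1843 and 1878 against 2261, 2386, 2204 and 2106, a log2 difference of -0.38 (SE 0.17, adjusted p = 0.761 in limma). Psmf1 was thus lower in each cMyc+ lateCD23int library than in each library of both neighboring subpopulations, although neither difference passed the test. Both contrasts use the same cMyc+ lateCD23int libraries, and the share of all genes low in this way was not counted.

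Psmb6 had 16513, 15684, 10150 and 15493 in cMyc+ lateCD23int and 17890, 17163, 19193 and 18573 in cMyc+ lateCD23lo, a log2 difference of -0.36 (SE 0.18), which was -0.19 without cMyc+ lateCD23int library 3. Psmc3ip had 2054, 1797, 1059 and 1640 against 2134, 2708, 2336 and 2147, a log2 difference of -0.54 (SE 0.23, adjusted p = 0.754 in limma), which was -0.35 without cMyc+ lateCD23int library 3. Psmd7, a lid subunit, had 4568, 6037, 4670 and 6529 against 4987, 7453, 7236 and 8600, with a log2 difference of -0.36 (SE 0.17, adjusted p = 0.783 in limma). In this contrast Psmb10 was the only member higher in cMyc+ lateCD23int in every library number, with 2812, 2414, 2669 and 2424 against 2221, 2375, 2662 and 2127, a log2 difference of 0.14 (SE 0.18). The groups overlapped, and in number 3 the values were nearly equal (2669 and 2662). The share of all genes with this pattern was not counted.

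Over the full span from cMyc+ early to cMyc+ lateCD23lo, 12 of 48 members were higher in cMyc+ early, against 49.6% of all genes, and the median difference was -0.15 (log2) against -0.01 for all genes. No member passed the adjusted threshold (0.28% of all genes did), and 5 (10.4%) had an unadjusted p-value under 0.05, against 10.3% of all genes, so that the share of members was that of all genes. All 14 constitutive core subunits had a lower mean in cMyc+ early, with differences of -0.45 to -0.12. The median was -0.23 without cMyc+ lateCD23lo library 1 and -0.10 without cMyc+ early library 4. The summed plasma cell markers were higher in each cMyc+ lateCD23lo library than in each cMyc+ early library, and their part was not tested. By mean log2 value 2 of these 5 markers were higher in cMyc+ early, by up to 1.15, so that the sum does not stand for each marker. Of those markers Jchain, which joins the chains of secreted IgM and IgA, had a log2 difference of -1.44 (SE 0.29, adjusted p = 0.0390 in limma), the only gene of the marker and pathway lists that passed the test in any contrast.

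The 5 members were Psmc3ip, Psmd10, Psma2, Psmb9 and Psmd14, all higher in cMyc+ lateCD23lo. Psmc3ip had 2021, 1300, 1901 and 1196 in cMyc+ early and 2134, 2708, 2336 and 2147 in cMyc+ lateCD23lo, with a log2 difference of -0.57 (SE 0.23, adjusted p = 0.404 in limma). Psmd10 had 2914, 2108, 3142 and 1802 against 3544, 3538, 3361 and 3486, with a log2 difference of -0.52 (SE 0.21, adjusted p = 0.404 in limma). The 4 cMyc+ lateCD23lo libraries of Psmd10 lay close together, while those of cMyc+ early were spread. Psma2, an alpha subunit, had 11755, 8689, 14466 and 8375 against 14375, 13098, 15144 and 15260, with a log2 difference of -0.45 (SE 0.19, adjusted p = 0.423 in limma).

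Psmc3ip, Psmd10 and Psmb9 were the members whose cMyc+ early libraries all lay below those of cMyc+ lateCD23lo, where 3.37% of all genes did. No member was separated in the other direction, where 2.86% of all genes were. Psmb9 had 4230, 4386, 3604 and 3216 against 4787, 5591, 4888 and 4622, with a log2 difference of -0.37 (SE 0.17, adjusted p = 0.452 in limma). Psmd3, Psme3 and Psmd11 had the opposite sign in every library number.

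Psmd3 had 326, 716, 329 and 706 in cMyc+ early and 227, 405, 218 and 337 in cMyc+ lateCD23lo, with a log2 difference of 0.75 (SE 0.45, 95% interval -0.19 to 1.69), the widest interval of the 48. Psme3 had a difference of 0.47 (SE 0.25) and the lid subunit Psmd11 one of 0.08 (SE 0.12), with 12384, 11171, 13877 and 12384 against 10542, 10784, 13860 and 11965. For all 3 genes the groups overlapped. The difference of Psmd11 was 0.19 with quantile normalization and 0.03 without cMyc+ early library 3.

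By order of means, 28 of 48 members were highest in cMyc+ prePB, 18 in cMyc+ lateCD23lo, 1 in cMyc+ early and 1 in cMyc+ lateCD23int. Over all genes tested these shares were 27.9%, 28.0%, 21.8% and 22.3%. The lowest mean was in cMyc+ early for 23 members, in cMyc+ lateCD23int for 19, in cMyc+ lateCD23lo for 5 and in cMyc+ prePB for 1, against 24.8%, 18.7%, 28.1% and 28.5% of all genes. In none of the contrasts above did a member's difference pass the test.

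The balance of inducible and constitutive catalytic subunits was described by the ratio of their counts per kb in each library. The ratio of Psmb8 to Psmb5 had a geometric mean of 4.43 over the 16 libraries and ranged from 3.72 to 5.80. Psmb9 to Psmb6 was at 0.172, from 0.102 to 0.281, and Psmb10 to Psmb7 at 0.430, from 0.316 to 0.574. Of the 3 inducible subunits, Psmb8 alone was thus above its constitutive partner in every library. These ratios depend on the transcript length used: with the length of all exons together Psmb8 to Psmb5 was 2.13 and Psmb10 to Psmb7 was 0.975.

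Between subpopulations the ratios moved little. Psmb8 to Psmb5 was 4.44 for cMyc+ prePB, against 4.62 in cMyc+ early, 4.26 in cMyc+ lateCD23int and 4.42 in cMyc+ lateCD23lo (geometric means, n = 4). Psmb9 to Psmb6 was 0.190, 0.155, 0.183 and 0.161, and Psmb10 to Psmb7 was 0.408, 0.454, 0.460 and 0.401 in the same order. For each pair the ranges of all 4 subpopulations overlapped, and no test was run on the ratios.

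In GENCODE coordinates of GRCm38, Psmb8 (chr17:34197721-34201454, plus strand) and Psmb9 (chr17:34181987-34187764, minus strand) lie near each other on the same chromosome, while Psmb10 lies on chromosome 8 (chr8:105935735-105938444, minus strand). The constitutive Psmb5 (chr14:54614119-54618022, minus strand), Psmb6 (chr11:70525367-70527858, plus strand) and Psmb7 (chr2:38588036-38644087, minus strand) lie on 3 other chromosomes. Values are 1 per gene and do not separate isoforms.

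**Figure D5:**
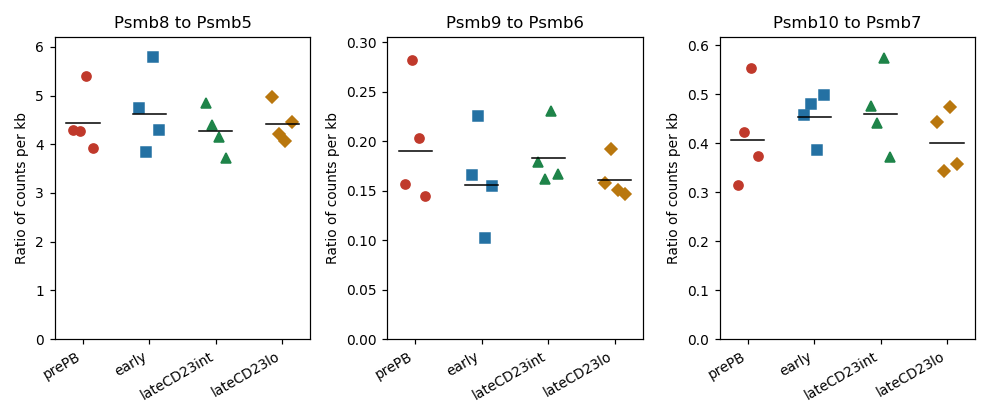
Ratio of normalized counts per kb of each inducible subunit to its constitutive partner in each library of the 4 subpopulations (linear axes from 0), with a line at the geometric mean of 4 libraries. Psmb8 to Psmb5 lies between 3.72 and 5.80, Psmb9 to Psmb6 between 0.102 and 0.281 and Psmb10 to Psmb7 between 0.316 and 0.574, with overlap among all subpopulations.

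Other genes of the pathway were read from 4 lists, and 0 of their 39 genes tested passed the adjusted threshold of limma in any comparison. In the contrast of cMyc+ prePB with cMyc+ early, the 15 proteasome partners had a median difference of 0.04 (log2), with 1 higher and 0 lower at an unadjusted p-value under 0.05. The maturation factor Pomp, which helps to assemble the core, averaged 12280 ± 1074 (SD, n = 4) normalized counts over the cMyc+ prePB libraries and 11753 ± 3621 over those of cMyc+ early, a log2 difference of 0.11 (SE 0.21). The 6 genes for ubiquitin and its E1 enzymes had a median of 0.05, with 0 under 0.05 unadjusted.

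Of the genes that control proteasome expression, 5 were tested and Nfe2l3 was too low at a mean of 3.21. The 5 had a median difference of 0.04 in the same contrast, with 0 higher and 1 lower at an unadjusted p-value under 0.05. Nfe2l2 had normalized counts of 1038, 1083, 529 and 558 in cMyc+ prePB and of 904, 1198, 1684 and 857 in cMyc+ early, a log2 difference of -0.56 (SE 0.26, adjusted p = 0.578 in limma), which was -0.36 without cMyc+ early library 3. Against the mean of the other 3 subpopulations its difference was -0.65 (SE 0.22, adjusted p = 0.245 in limma). Nfe2l1 was low, with 190 ± 46.6 normalized counts for cMyc+ prePB against 175 ± 112 for cMyc+ early (SD, n = 4). Nfe2l2 thus had a lower mean in cMyc+ prePB while most members had a higher one, and no test joined these values.

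The MHC class I processing genes, which use the peptides of the immunoproteasome, had the largest median of the 4 lists in this contrast. In cMyc+ prePB minus cMyc+ early 12 of 13 were above 0, with a median of 0.35 (log2) and 3 under 0.05 unadjusted, where 51.2% of all genes were above 0 and 8.58% under 0.05. Against the mean of the other 3 subpopulations 12 of 13 were again above 0, with a median of 0.51 and 6 under 0.05 unadjusted, where 50.3% and 11.1% of all genes were. The comparisons share the cMyc+ prePB libraries. The peptide transporter Tap1 had 1132, 2959, 1975 and 3084 in cMyc+ prePB and 872, 1389, 779 and 2030 in cMyc+ early, with a log2 difference of 0.85 (SE 0.38, adjusted p = 0.562 in limma). Irf1, which controls Psmb9 and Tap1 after interferon, had 330, 1119, 499 and 317 against 323, 377, 252 and 243, with a log2 difference of 0.74 (SE 0.42, adjusted p = 0.662 in limma). Without cMyc+ prePB library 2, which had the highest values of Irf1 and of Psmb9, the difference of Irf1 was 0.34.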

How the data were processed

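RNA of 4 cMyc+ GC B cell subpopulations, sorted from mouse spleen on day 7, was sequenced in 16 low-input libraries. The deposited signal per gene was normalized counts, that is, the counts of each library over its own size factor. Per the labels, the submitters' processing notes name Trimmomatic 0.36, STAR 2.5.2a, RSEM 1.2.31, DESeq2 1.20.0, R 3.5.1 and GRCm38. Roles and strand setting are not given in the sources used here. Every value was a whole multiple of 1 read (tolerance 0.01 reads), so 100% of the values gave whole reads. How the notes' RSEM estimates became whole was not stated.

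After log2 transformation with a pseudocount of 1, 12505 genes that averaged 10 or more entered 1 trended fit over all libraries (limma 3.58.1, R 4.3.3) with Benjamini-Hochberg adjustment. Folds on this scale understate changes of low genes. edgeR 4.0.16 and DESeq2 1.42.0 were run on recovered reads as alternatives, and scripts were tested on simulated data. Members and gene lists were chosen with earlier results of these data known. No test over the list was run.

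Genes named were those called in any comparison (0), the catalytic pairs, Psme1 and Psme2, up to 3 genes per direction and contrast with the largest difference and the same sign in every replicate number, the 3 lowest p-values of the multigroup comparison, the extremes per kb of each role, the members under the filter and, from the other lists, called genes with Nfe2l1, Nfe2l2, Pomp, Tap1 and Irf1. The share of all genes with the same sign in every number was not counted, and the labels do not say that same-numbered libraries are pairs. Members under an unadjusted p-value of 0.05 or without overlap were named for those counts, after their values were seen. Replicates are separate libraries of 1 subpopulation, and the labels do not say that they came from separate animals, so p-values may measure technical spread.

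Gene models were from GENCODE vM21, in which all 50 members were matched by identifier. Alternatives tried were other pseudocounts (0.5 and 5), a minimum mean of 50 or none, equal totals, quantiles or TMM factors for scaling, a prior without trend, fits of only the compared groups, edgeR with and without the replicate number as a block, limma with it, DESeq2, and leaving out each library. Other transcript lengths were added after the data were seen. So was leaving out libraries for Psmb6, Psmd7, Psma7, Psmb9, Irf1, Tap1 and Nfe2l2 where a planned fit gave no such value. Each of these differences kept its sign. Those of Psmd7, Psma7, Tap1 and, for cMyc+ early minus cMyc+ lateCD23lo, Psmb9 are not given above. Some genes of the marker lists are not reported here.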

Additional observations from a re-analysis of the deposited data

Results flagged for a closer look

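Each member tested, and the share of counts in all members, was checked in each subpopulation for a library far from the other 3. Dixon's 95% critical value for 4 libraries was used. Of 196 such checks 5 passed, and chance alone passes about 1 in 20. Psma5 had a normalized count of 5521 in cMyc+ lateCD23int library 3, against 7600 to 8005 in the other 3. Psmb6 had 10150 in the same library, against 15493 to 16513. Psmc2 had 11289 in cMyc+ prePB library 1, against 9357 to 9500, and Psmd2 had 5494 there, against 9471 to 10572. Psmf1 had 2849 in cMyc+ early library 3, against 1994 to 2045. In cMyc+ lateCD23int library 3 the members as a group were also low, and in cMyc+ early library 3 they were high, as given above.

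Pseudogenes outside the rule were read as well. Psmb6-ps2 had more than 3 reads in 5 of 16 libraries, with a highest normalized count of 5.77, and Psmb7-ps2 in 5 of 16, with a highest count of 31.6. Reads of the parent genes and these copies cannot be told apart with certainty, and the parents Psmb6 and Psmb7 had 16010 and 5174 normalized counts on average.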

How the results depend on the processing

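The count of members called stayed at 0 in all 6 comparisons under each of the 13 alternatives, or 12 for the multigroup comparison and cMyc+ prePB against the others, and in each of 16 fits without 1 library, where both the lowest and the highest count was 0. The lowest adjusted p-value of any member was 0.172 among the alternatives (quantile normalization) and 0.158 without 1 library. The fit of only the groups compared was not run for the multigroup comparison and for cMyc+ prePB against the mean of the others. The counts of all genes moved more, from 51 to between 25 and 265 in the multigroup comparison, from 24 to between 0 and 131 for cMyc+ prePB minus cMyc+ early, from 35 to between 20 and 170 for cMyc+ early minus cMyc+ lateCD23lo and from 39 to between 27 and 225 for cMyc+ prePB against the others. For cMyc+ early minus cMyc+ lateCD23int they went from 1 to between 0 and 20, and for cMyc+ lateCD23int minus cMyc+ lateCD23lo from 1 to between 0 and 14.

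The median difference of the members kept its sign under all alternatives other than leaving out a library, with 0.14 to 0.19 for cMyc+ prePB minus cMyc+ early, -0.02 to -0.002 for cMyc+ early minus cMyc+ lateCD23int, -0.16 to -0.08 for cMyc+ lateCD23int minus cMyc+ lateCD23lo, -0.15 to -0.07 for cMyc+ early minus cMyc+ lateCD23lo and 0.13 to 0.18 for cMyc+ prePB against the others. Without 1 library the ranges were 0.11 to 0.21, -0.0789 to 0.0374, -0.21 to -0.06, -0.23 to -0.10 and 0.11 to 0.15 in the same order. The sign of the contrast of cMyc+ early with cMyc+ lateCD23int turned in 4 of those 16 fits. For Psme1 in cMyc+ prePB minus cMyc+ early it turned in 2, with a range of -0.0566 to 0.17. With the length of all exons together the log2 ratio of Psmb8 to Psmb5 fell from 2.15 to 1.09 and that of Psmb10 to Psmb7 went from -1.22 to -0.0369. The cause of these changes was not tested, apart from the length itself.

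With the replicate number as a block, 0 members were called in each comparison, and the lowest adjusted p-values in limma were 0.195 in the multigroup comparison and 0.207 for cMyc+ prePB minus cMyc+ early. All genes called went from 51 to 173 in the multigroup comparison and from 24 to 65 for cMyc+ prePB minus cMyc+ early. They went from 35 to 90 for cMyc+ early minus cMyc+ lateCD23lo and from 39 to 211 for cMyc+ prePB against the others. In the other contrasts the count stayed at 1. Correlations of the deviations of same-numbered libraries ranged from -0.129 to 0.174. The main fits did not pair libraries by number, because the labels name no animal or batch that same-numbered libraries share. For number 1 all were positive, from 0.0661 to 0.174. In library 1 of all 4 subpopulations 4.41% of all genes tested had their lowest value, against 0.216% to 0.792% for the numbers 2, 3 and 4. Libraries numbered 1 thus shared a pattern that the main fits did not model, and its cause was not tested.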

Other observations

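The libraries numbered 1 shared a pattern across the genes tested, with 551 genes lowest and 534 highest in library 1 of all 4 subpopulations. A few members were among them. Psmc1, an ATPase of the base, Psmd2 and Psme3 had their lowest value in library 1 of all 4 subpopulations, which is 3 of 48 members, against 4.41% of all genes tested. Psme2b had its highest value in library 1 of all 4, which is 1 of 48, against 4.27% of all genes. For the numbers 2, 3 and 4 no member was lowest or highest in all 4 subpopulations, and the shares of all genes ranged from 0.216% to 0.792%. Psmc1 had 7071 in cMyc+ prePB library 1, against 8473 to 10083 in the other 3, and 6499 in cMyc+ lateCD23lo library 1, against 9714 to 10799. These genes were chosen after their values were seen, and the labels do not say what a number stands for.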
